A study of Caenorhabditis elegans with 4 samples.

Results

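The nlp genes of Caenorhabditis elegans encode neuropeptide-like proteins, precursors of secreted peptides that belong to neither the FMRFamide-like nor the insulin-like family. Members were taken as all probes with 1 gene whose symbol in the platform annotation starts with nlp-, which gave 60 probes of 53 genes, out of 21632 probes and 14943 genes with a single name. Of 78 protein-coding nlp genes in the gene table, the other 25, among them nlp-33, nlp-34 and nlp-40, were not analysed here. RNA of wild-type second-stage (L2) larvae, from 4 preparations called preps 1 to 4, was hybridised on 2-colour DNA arrays, each prep on its own array beside a mixed wild-type reference RNA. All 4 preps form 1 group, so L2 against the reference is the only comparison. The sources used here name no strain, culture or age beyond the larval stage and not what went into the reference, and they do not call the preps separate cultures.

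A neuropeptide precursor enters the secretory pathway, is cut at basic residues by the proprotein convertase EGL-3, is trimmed by the carboxypeptidase EGL-21 and is often amidated. The peptides are stored in dense core vesicles and act after release, mostly on G protein-coupled receptors. A subset of the family, numbered nlp-24 to nlp-34, encodes short peptides rich in glycine and tyrosine. Several of these, with nlp-29 the best known, are made in the epidermis as antimicrobial peptides and are induced by fungal infection and wounding.

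Each value is the log2 ratio of L2 over reference, with the median of each array set to 0. A value of -1 is thus a level 2-fold lower in L2 than in the reference. This direction is likely, not certain: by the labels channel 1 holds the reference and channel 2 holds L2, with the dyes unnamed, and a dye bias cannot be told apart from L2. The genes for yolk proteins and for major sperm proteins, products of the adult intestine and of sperm, had median ratios of -5.42 and -3.14 and were negative by median in all 4 preps. Between 21209 and 21386 probes had a value per array. Precision is limited by the number of arrays. Spot brightness was not analysed, so noise from dim spots could not be judged. Prep 3 stood apart, with correlations to the other arrays of 0.495 to 0.572 over 19153 features on all arrays, against 0.679 to 0.744 among preps 1, 2 and 4, so results are also given without it where it changes them.

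The nlp genes were lower in L2 more often than higher. Mean ratios were below 0 for 39 of 53 genes and above 0 for 14, with a median of -0.54, against a median of 0.01 over all 19941 features tested. By limma with Benjamini-Hochberg adjustment over all features, 15 nlp genes fell and 0 rose at an adjusted p under 0.05, that is 28.3% of members lower. Over all features 9.87% were called lower and 4.85% higher, and over the 14921 features with a single gene name 11.3% were lower and 5.33% higher. At an unadjusted p under 0.05, 25 nlp genes were lower and 4 higher (nlp-22, nlp-24, nlp-36 and nlp-90). At that level 3699 of all 19941 features were lower and 2744 higher. The count of 15 was 8, 7, 19 and 8 without preps 1, 2, 3 and 4, of which 8, 6, 13 and 8 were among the 15. Shares over all features with a prep left out are not given, here or for the lists below. A loss of calls particular to these genes thus cannot be told from a general one. In bulk RNA, fewer cells of a type and less RNA per cell cannot be told apart. Of the 52 nlp genes on all 4 arrays, 25 (48.1%) were below 0 in every prep and 5 (9.62%) above 0 in every prep. Over all features on 4 arrays these shares were 22.7% and 20.1%.

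**Figure D1:**
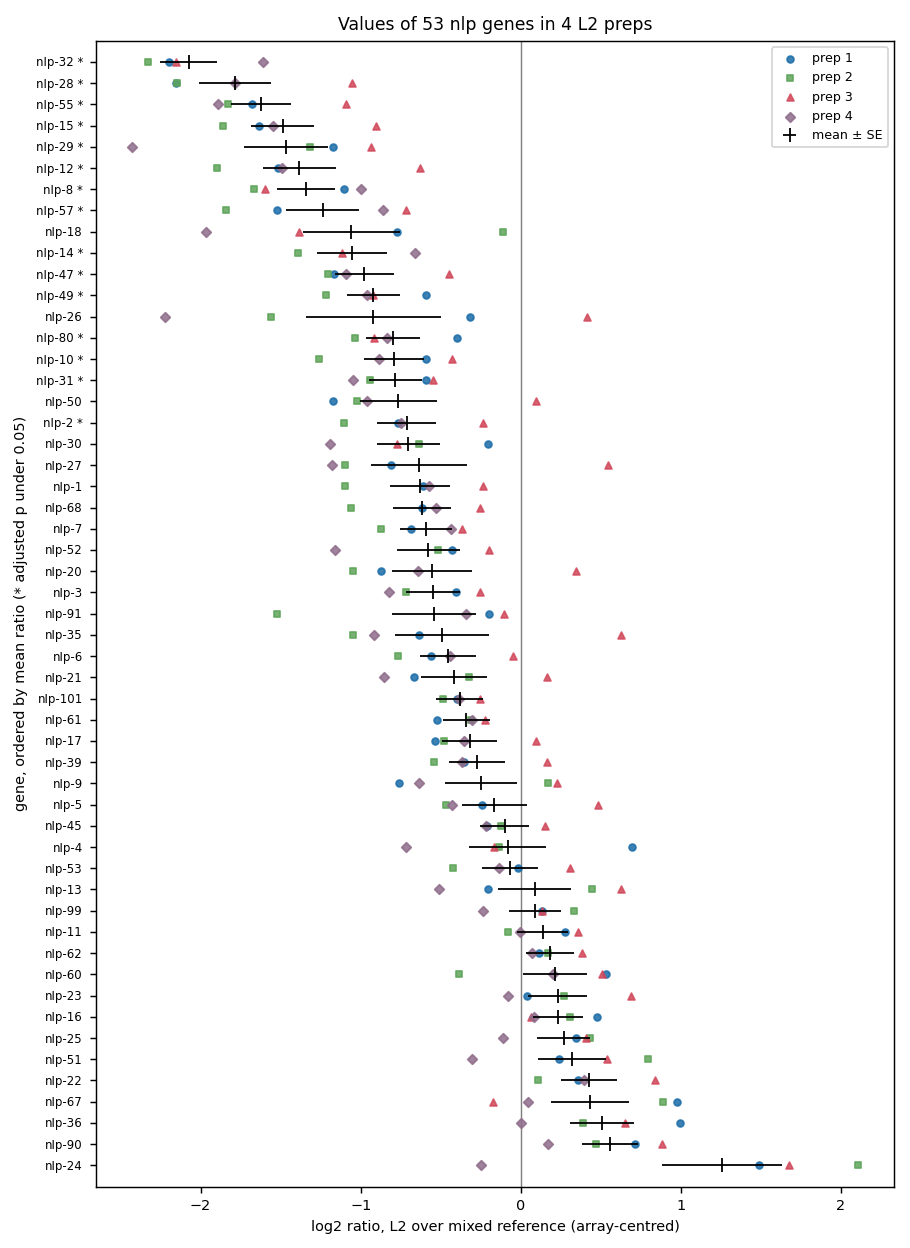
Log2 ratios of L2 over the mixed reference (x axis) for the 53 nlp genes (y axis), ordered by mean; symbols are the 4 preps, ticks with bars the mean and its SE from limma, and asterisks mark the 15 genes with an adjusted p under 0.05. All 15 lie below 0 in every prep with a value, from nlp-32 at -2.08 to nlp-2 at -0.71, and nlp-24 is the only gene with a mean above 1.

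The glycine- and tyrosine-rich members held both the lowest and the highest mean of the family. Of 9 measured genes of this type, 4 fell (44.4%) and 0 rose, beside 9.87% of all features lower and 4.85% higher. Those that fell were nlp-32, nlp-28, nlp-29 and nlp-31, and 5 genes did not pass the test. The number lower was 3, 2, 5 and 3 without preps 1, 2, 3 and 4, and 1 was higher without prep 4. The lowest was nlp-32, with values of -2.20, -2.33, -2.16 and -1.61 in preps 1 to 4. All preps lay far below 0 and close together. Its mean was -2.08 ± 0.32 (SD, n = 4), or 4.21-fold lower in L2 (limma, adjusted p = 0.00136), and its call held without any single prep.

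The values of nlp-28 were -2.16, -2.15, -1.06 and -1.78 in preps 1 to 4, with prep 3 the nearest to 0. Its mean was -1.79 ± 0.52 (SD, n = 4), or 3.45-fold lower (limma, adjusted p = 0.00462). The antimicrobial peptide gene nlp-29 had -1.17, -1.32, -0.94 and -2.43. Prep 4 was thus the lowest for nlp-29, and the others lay closer together. It fell by 1.47 on the log2 scale, with an SD of 0.66 (n = 4; limma, adjusted p = 0.0152). Without prep 2 the adjusted p was 0.0561, and with scale normalization it was 0.0501. A peptide with antifungal activity in vitro is encoded by nlp-31, which had -0.59, -0.94, -0.55 and -1.05, all below 0, and a mean of -0.78 ± 0.25 (SD, n = 4; limma, adjusted p = 0.0252). The call of nlp-31 held without prep 3 (adjusted p = 0.0291) and ended without prep 1, 2 or 4 (0.0755, 0.0962 and 0.0979).

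The opioid-like peptide gene nlp-24, linked to foraging during starvation, went the other way in 3 of 4 preps. It had 1.49, 2.11 and 1.67 in preps 1, 2 and 3 and -0.25 in prep 4. Prep 4 alone was below 0 and separate from the others. The mean of 1.26 ± 1.03 (SD, n = 4) did not pass the test (limma, adjusted p = 0.0687), and its 95% interval ran from 0.36 to 2.15. Without prep 4 the mean was 1.76 and the adjusted p 0.0107, and without prep 1, 2 or 3 the adjusted p was 0.184, 0.218 and 0.162.

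Values of nlp-26 were spread most widely in the family, at -0.32, -1.56, 0.41 and -2.22 in preps 1 to 4. With an SD of 1.19 around a mean of -0.92 it did not pass the test (limma, adjusted p = 0.184). For nlp-30 the values were -0.21, -0.64, -0.78 and -1.19 (adjusted p = 0.0588). Those of nlp-27 were -0.81, -1.10, 0.54 and -1.18, below 0 in all preps but prep 3, and its adjusted p was 0.198 over all preps and 0.0164 without prep 3. The last of this type, nlp-25, had 0.35, 0.43, 0.41 and -0.11, with only prep 4 below 0, and a mean of 0.27 ± 0.26 (SD, n = 4; adjusted p = 0.299).

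In the gene table, nlp-34, nlp-31, nlp-30, nlp-29, nlp-28 and nlp-27 form a run of neighbours on chromosome V. Neighbours were nlp genes with at most 1 other protein-coding gene between one and the next. The 5 measured members of this run had means from -1.79 to -0.64 and a median of -0.78, and 3 of them fell, beside 9.87% of all features. Those 3, nlp-28, nlp-29 and nlp-31, were already counted above among the glycine- and tyrosine-rich genes. In preps 1, 2 and 4 every measured gene of the run was below 0. In prep 3, nlp-27 was the exception. These neighbours encode similar peptides, and hybridisation of one transcript to another gene's probe was not tested.

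**Figure D2:**
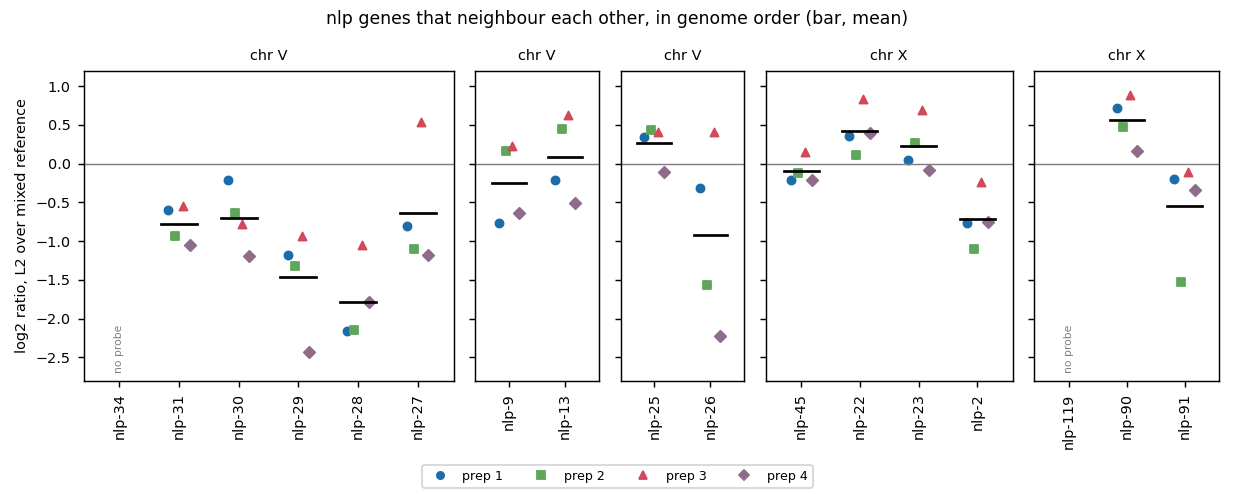
Log2 ratios of L2 over the mixed reference (y axis) for the nlp genes that neighbour each other, in genome order within each panel (x axis); symbols are preps and bars means. The run of nlp-31 to nlp-27 lies below 0 except nlp-27 in prep 3, while the run of nlp-45, nlp-22, nlp-23 and nlp-2 spans means from 0.42 to -0.71.

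On the X chromosome nlp-45, nlp-22, nlp-23 and nlp-2 form another run of neighbours. The last 3 encode RPamide peptides, and nlp-22 is known for its part in sleep at the molts. Only nlp-2 of the 4 passed the test. It had -0.76, -1.10, -0.24 and -0.75, all below 0, with a mean of -0.71 ± 0.36 (SD, n = 4; limma, adjusted p = 0.0476). This call held without prep 3 (adjusted p = 0.0253), and ended without prep 1, 2 or 4 (0.152, 0.162 and 0.133), with deposited values (0.0554) and with mean centring (0.0597).

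Its neighbour nlp-22 was above 0 in all preps, at 0.35, 0.11, 0.84 and 0.39, with a mean of 0.42 ± 0.31 (SD, n = 4; adjusted p = 0.149). The means of nlp-23 and nlp-45 were 0.23 and -0.10. Elsewhere on the X chromosome nlp-90 was above 0 in all preps, at 0.72, 0.47, 0.88 and 0.17 (adjusted p = 0.0787). Its neighbour nlp-91 was below 0 in all preps, with -1.52 in prep 2 and -0.34 to -0.10 in the others (adjusted p = 0.204). The neighbours nlp-9 and nlp-13 on chromosome V were both below 0 in preps 1 and 4 and above 0 in preps 2 and 3, with -0.76 and -0.21 in prep 1, 0.17 and 0.44 in prep 2, 0.23 and 0.62 in prep 3, and -0.64 and -0.51 in prep 4. Neither passed the test.

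The genes nlp-3, nlp-8 and nlp-15 are known from the HSN motor neurons, which drive egg laying in the adult. The values of nlp-15, which encodes an orcokinin-like peptide, were -1.64, -1.86, -0.90 and -1.55, all below 0. Its mean was -1.49 ± 0.41 (SD, n = 4), or 2.8-fold lower (limma, adjusted p = 0.00557). For nlp-8, also known from the sleep-promoting ALA neuron, they were -1.10, -1.67, -1.60 and -0.999, with a mean of -1.34 ± 0.34 (SD, n = 4; limma, adjusted p = 0.00591). Both calls held without any single prep. For nlp-3, whose peptides stimulate egg laying, the values were -0.40, -0.72, -0.25 and -0.82, also all below 0, and the adjusted p was 0.0728.

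The other orcokinin-like gene, nlp-14, had no value in prep 1 and -1.39, -1.11 and -0.66 in preps 2, 3 and 4. Its mean was -1.06 ± 0.37 (SD, n = 3; limma, adjusted p = 0.0312), and the call ended without prep 1 (0.0522, on the same 3 values) and in a robust fit (0.0571). The cholecystokinin-like gene nlp-12, made in a stretch-sensitive interneuron and active in locomotion, had -1.52, -1.90, -0.63 and -1.49. Prep 3 was the nearest to 0, and the other 3 lay together. It was 2.61-fold lower on average, at -1.38 ± 0.54 (SD, n = 4; limma, adjusted p = 0.0114), with an adjusted p of 0.0514 without prep 1.

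The gene nlp-47 encodes a peptide related to gonadotropin-releasing and adipokinetic hormones. It had -1.17, -1.21, -0.45 and -1.09, with prep 3 again nearest to 0. Its mean was -0.98 ± 0.36 (SD, n = 4; limma, adjusted p = 0.0183), and without prep 1, 2 or 4 the adjusted p was 0.0822, 0.0772 and 0.0684. The arousal peptide gene nlp-49 had -0.59, -1.21, -0.92 and -0.96, a mean of -0.92 ± 0.26 (SD, n = 4; limma, adjusted p = 0.0153), and adjusted p values of 0.0648 and 0.0599 without preps 2 and 4. Its value in prep 1 came from 1 of its 2 probes.

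The remaining lower calls were nlp-55, nlp-57, nlp-80 and nlp-10. The largest of these was nlp-55, with -1.68, -1.83, -1.09 and -1.89, a mean of -1.62 ± 0.37 (SD, n = 4), or 3.08-fold lower. Its call held without any single prep (limma, adjusted p = 0.00346). The nlp-55 value in prep 3 came from 1 of its 2 probes. The values of nlp-57 were -1.53, -1.84, -0.72 and -0.86, with preps 1 and 2 lower than preps 3 and 4 (adjusted p = 0.0166, and 0.0713 and 0.0595 without preps 1 and 2). Those of nlp-80 were -0.40, -1.04, -0.92 and -0.83, with prep 1 nearest to 0 (adjusted p = 0.0264). For nlp-10 they were -0.59, -1.26, -0.43 and -0.89 (adjusted p = 0.036). Each of these 4 genes was below 0 in every prep. When prep 1, 2, 3 or 4 was left out, the adjusted p of nlp-80 was 0.0491, 0.102, 0.0511 and 0.0895. For nlp-10 it was 0.0955, 0.122, 0.0335 and 0.113.

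The other 38 members did not pass the test. Lowest by mean among them was nlp-18, with -0.77, -0.11, -1.39 and -1.97 (adjusted p = 0.0618, and 0.0441 without prep 2). The olfactory neuron peptide gene nlp-1 had -0.61, -1.10, -0.23 and -0.57 (adjusted p = 0.067). The values of nlp-68 were -0.62, -1.06, -0.26 and -0.53 (adjusted p = 0.0659). The remaining members without a call and below 0 by mean ranged from nlp-50 at -0.77 to nlp-53 at -0.07. Above 0, leaving aside nlp-24, means ran from 0.09 (nlp-13) to 0.56 (nlp-90).

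The nlp genes varied between preps in a shared way. Their median was -0.48, -0.64, -0.10 and -0.64 in preps 1 to 4, and 38 of 52, 40 of 53, 28 of 53 and 46 of 53 members with a value were below 0. Prep 3 was the nearest to 0. It held the highest value of the 4 preps for 37 of 52 members (71.2%) and the lowest for 2 (3.85%). Over all features on 4 arrays, prep 3 was the highest for 34.1% and the lowest for 29%. Examples are nlp-35, at 0.63 in prep 3 and -1.05 to -0.64 in the others, nlp-20, at 0.35 in prep 3 and -1.05 to -0.64 in the others, and nlp-50, at 0.10 in prep 3 and -1.17 to -0.96 in the others. Without prep 3 nlp-1, nlp-20, nlp-27, nlp-35, nlp-50 and nlp-68 also passed the test as lower, while nlp-80 no longer did and nlp-14, left with values on 2 arrays, was not tested. Over the 52 members the correlation of values between preps ran from 0.644 (preps 3 and 4) to 0.866 (preps 1 and 2), as a description of genes that share arrays.

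Prep 3 was also the highest by median for the FMRFamide-like and insulin-like genes. The same held for the caenacins (-0.74 in prep 3) and the major sperm proteins (-2.44), so it was not particular to neuropeptide genes. For all 6 lists of tissue markers prep 3 was the lowest. The FMRFamide-like genes had medians of -0.63, -0.60, -0.16 and -0.47 in preps 1 to 4. For the insulin-like genes they were -0.39, -0.57, 0.05 and -0.25. The 12 neuron markers, genes of synaptic transmission and axon structure, had -0.14, -0.21, -0.42 and -0.02, so that prep 3 was their lowest. The prep 3 median was -0.34 for epidermis, -0.87 for seam, 0.61 for intestine, -1.66 for germ line and -1.70 for gonadal sheath markers, and -0.37 for the genes of dense core vesicles, each the lowest of the 4 preps. The part of these shifts in the nlp values was not tested.

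**Figure D3:**
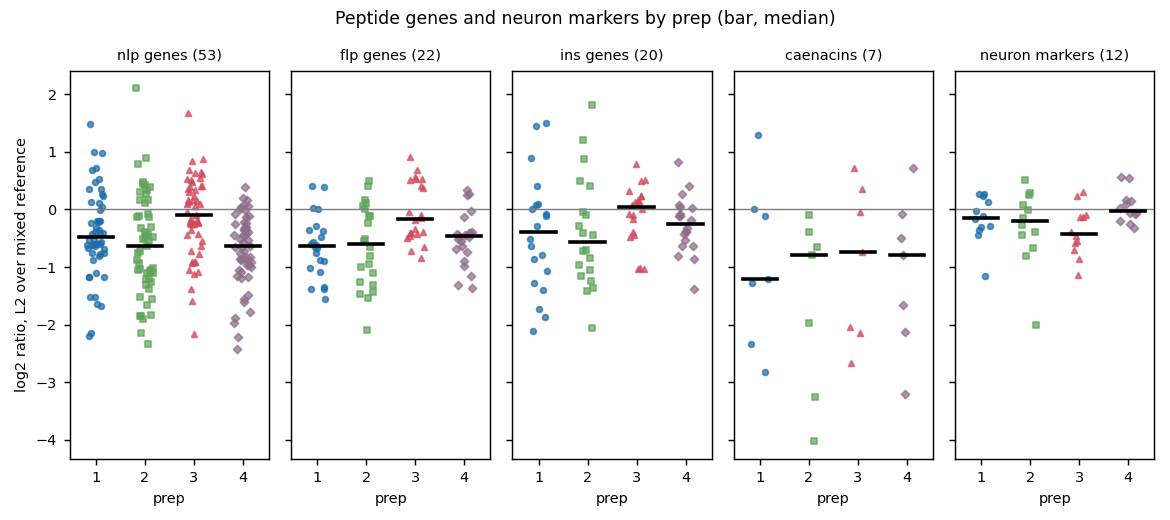
Log2 ratios of L2 over the mixed reference (y axis) by prep (x axis) for nlp, flp and ins genes, caenacins and neuron markers; points are genes, bars medians. The nlp median is -0.10 in prep 3 and -0.64 to -0.48 in the others, while the neuron markers have their lowest median, -0.42, in prep 3.

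Over all features 9.87% were called lower and 4.85% higher, shares to set beside the counts for each marker list. At an unadjusted p under 0.05, 3699 of 19941 features were lower and 2744 higher. None of the neuron markers passed the test. Of 12 tested by limma, 0 rose and 0 fell, with 0 higher and 2 lower at an unadjusted p under 0.05. Their median was -0.17, and the largest absolute mean was that of unc-33, an axon outgrowth gene, at -0.90 ± 0.86 (SD, n = 4; adjusted p = 0.106). Of 8 epidermis markers 2 rose and 0 fell, with a median of 0.15 over the list. Those that rose were the cuticle collagen genes dpy-13 (2.05 ± 1.51, with -0.17 in prep 3) and rol-6 (1.53 ± 0.64). The others did not pass, with means below 0 for lin-26 (-0.56), elt-1 (-0.42) and elt-3 (-0.20). Means above 0 without a call were those of che-14 (0.02), sqt-3 (0.27) and dpy-7 (0.45). The epidermis rises were 0, 1, 2 and 1 without preps 1, 2, 3 and 4. Of 5 seam markers 1 rose (nhr-73 at 2.27 ± 0.46), with a median of 0.54. Among the others, ceh-16 (-0.50) and egl-18 (-0.45) were below 0 in all preps and lower at an unadjusted p under 0.05, without passing the test. Intestine markers had 4 of 7 higher, with pept-1 at 2.23 ± 0.25 and act-5 at 1.99 ± 0.52. The intestine rises were 2, 2, 5 and 3 and the seam rises 1, 1, 1 and 2 without preps 1, 2, 3 and 4. The gonadal sheath markers tbh-1 (-2.82 ± 0.43) and tdc-1 (-2.30 ± 0.42) fell. The other 2 of that list, ceh-18 (-0.05 ± 0.68) and lim-7 (0.14 ± 0.14), did not pass. Of 6 germ line markers 3 fell, led by gld-1 (-2.27 ± 0.54) and glp-1 (-0.95), and 1, 1, 3 and 2 did without preps 1, 2, 3 and 4. The part of these tissue differences in the nlp ratios was not tested.

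Of 9 peptide processing genes tested, 2 fell and 0 rose, with a median of -0.55, beside 9.87% of all features lower, and the count lower was 2, 1, 3 and 2 without preps 1, 2, 3 and 4. They were sbt-1, the 7B2-like chaperone of the convertase EGL-3, at -1.11, -1.32, -0.90 and -1.09 (mean -1.10 ± 0.17, adjusted p = 0.00639), and pamn-1, an enzyme of peptide amidation, at -1.01, -1.36, -1.80 and -0.74 (mean -1.23 ± 0.46, adjusted p = 0.0124). For pamn-1 the adjusted p was 0.0571 without prep 2. The convertase gene egl-3 had -0.57, -0.58, -2.20 and -0.11 (adjusted p = 0.132), and the carboxypeptidase gene egl-21 -0.52, -0.86, -1.93 and -0.43 (adjusted p = 0.0647). For both, prep 3 was the lowest, where most nlp genes were highest.

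Of 11 genes of dense core vesicle formation and release, 1 fell, the protein kinase C gene pkc-1 (-0.72 ± 0.36, adjusted p = 0.0462), and 0 rose, with a median of -0.04. This share of 9.09% was near the 9.87% over all features. The call of pkc-1 ended whichever prep was left out (adjusted p from 0.0538 to 0.166). The vesicle release gene unc-31 had a mean of -0.25 and the vesicle protein gene ida-1 one of -0.64, and neither passed. Of 25 neprilysins, membrane peptidases that degrade peptides outside cells, 2 were higher (8%) and 3 lower (12%), near the 4.85% and 9.87% over all features. They were led by nep-17 (2.08 ± 1.31) and nep-22 (1.81 ± 0.79) above 0 and by nep-14 (-1.69 ± 0.59) and nep-26 (-0.97 ± 0.48) below 0. Leaving out preps 1, 2, 3 and 4 in turn gave 1, 0, 3 and 1 neprilysins higher and 1, 1, 3 and 2 lower.

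Receptors reported for nlp peptides gave 0 calls among 16 tested by limma, beside 9.87% of all features lower and 4.85% higher. The median of the list was 0.04. Of all 19941 features, 2744 were higher and 3699 lower at an unadjusted p under 0.05. At the same level, 0 receptors were higher and 1 was lower. That 1 was npr-17, the opioid receptor-like partner of nlp-24, at -0.70, -0.27, -0.45 and -0.90 (mean -0.58 ± 0.28, adjusted p = 0.0654). All of its preps were below 0, where nlp-24 was above 0 in 3 of 4. For ligands that fell, the receptor means were -0.16 for ckr-2 and 0.09 for ckr-1 (nlp-12), 0.11 for gnrr-1 (nlp-47), -0.33 for npr-35 (nlp-10), and -0.20 and -0.05 for gnrr-3 and gnrr-6 (nlp-2). The receptor of the nlp-1 peptides, npr-11, had a mean of 0.15.

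The epidermal signalling genes that act upstream of the antimicrobial nlp genes were mostly without a call, like most features. Of 13 tested, 1 rose (7.69%) and 0 fell, beside 4.85% of all features higher and 9.87% lower. The median of the list was -0.07. The rise was that of rack-1, a conserved scaffold protein of ribosomes and signalling, at 0.82 ± 0.31 (adjusted p = 0.0263), with an adjusted p of 0.112, 0.0913 and 0.097 when prep 1, 2 or 4 was left out. Without prep 3 there were 2 rises. The MAP kinase gene pmk-1 had a mean of -0.32, the adaptor gene tir-1 -0.35, with -1.70 in prep 3 and 0.06 to 0.18 in the others, and the transcription factor gene sta-2 -0.07. None of these 3 passed the test.

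Caenacins, another group of epidermal antimicrobial peptides, included values lower than those of any nlp gene. Over all features 9.87% were called lower and 4.85% higher. Of 7 caenacins tested, 4 fell (57.1%) and 0 rose, with a median of -1.17. The lowest was cnc-2, an antimicrobial peptide gene that like nlp-29 responds to epidermal challenge, at -2.83, -3.26, -2.66 and -3.22, a mean of -2.99 ± 0.29 (SD, n = 4; limma, adjusted p = 0.000529). The next was cnc-1 at -2.52 ± 1.04 (SD, n = 4; adjusted p = 0.00811). The counts lower were 3, 3, 4 and 4 without preps 1, 2, 3 and 4. FMRFamide-like genes had 7 of 22 lower (31.8%) and 0 higher, with a median of -0.53, led by flp-15 (-1.21) and flp-24 (-1.10). Their number lower was 0, 0, 7 and 1 without preps 1, 2, 3 and 4, with no share over all features given for these fits. Insulin-like genes had 4 of 20 lower (20%) and 1 higher (5%), with a median of -0.40. For these, 2, 3, 4 and 3 were lower without preps 1, 2, 3 and 4. The lowest were ins-17 (-1.32) and ins-7 (-1.27), and the 1 that rose was ins-5 (1.14), which passed without prep 3 and not without prep 1, 2 or 4. No test of the difference between these families and the nlp genes was made.

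**Figure D4:**
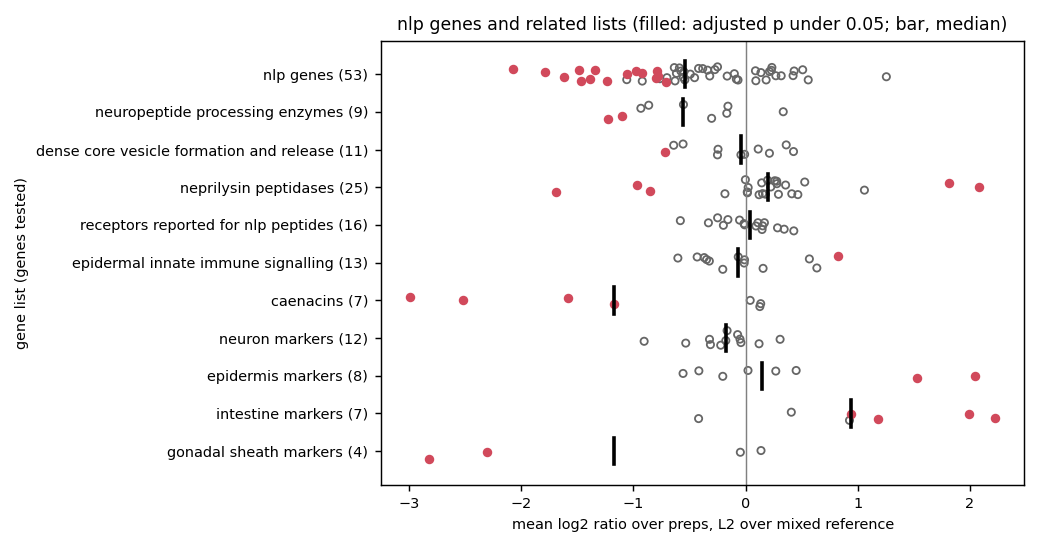
Mean log2 ratios over preps (x axis) of the nlp genes and 10 related lists (y axis, with the number of genes tested); filled points have an adjusted p under 0.05 and bars are medians. The nlp median lies at -0.54 with all filled points below 0, the receptors have a median of 0.04 with no filled point, and the caenacins reach -2.99.

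For 7 nlp genes the array carried 2 probes, which for some differed more than the preps did. The 2 probes of nlp-55 both fell when tested singly, at -1.56 ± 0.39 (n = 4) and -1.89 ± 0.13 (n = 3; limma, adjusted p = 0.00464 and 0.00352). Those of nlp-49 had -0.40 ± 0.20 (n = 4) and -1.72 ± 0.48 (n = 3), and only the second passed (0.134 and 0.0103). The mean given above for nlp-49 is therefore between unlike probes, and the second was lower in all 3 preps with both.

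The egg-laying inhibitor gene nlp-7 had -0.14, -0.37, -0.06 and 0.11 at one probe and -1.24, -1.38, -0.67 and -0.98 at the other. The values of its probes did not overlap. Averaged over probes it did not pass (adjusted p = 0.0558), while the second probe did on its own (limma over single probes, adjusted p = 0.0117) and the first did not (0.648). For nlp-17 the probe means were -0.81 and 0.17, for nlp-61 -0.66 and -0.02, for nlp-21, widely used as a marker of dense core vesicles, -0.19 and -0.64, and for nlp-45 0.01 and -0.21. None of these 8 probes passed the test. Where on each transcript a probe lies is not stated, and splice forms were not tested.

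**Figure D5:**
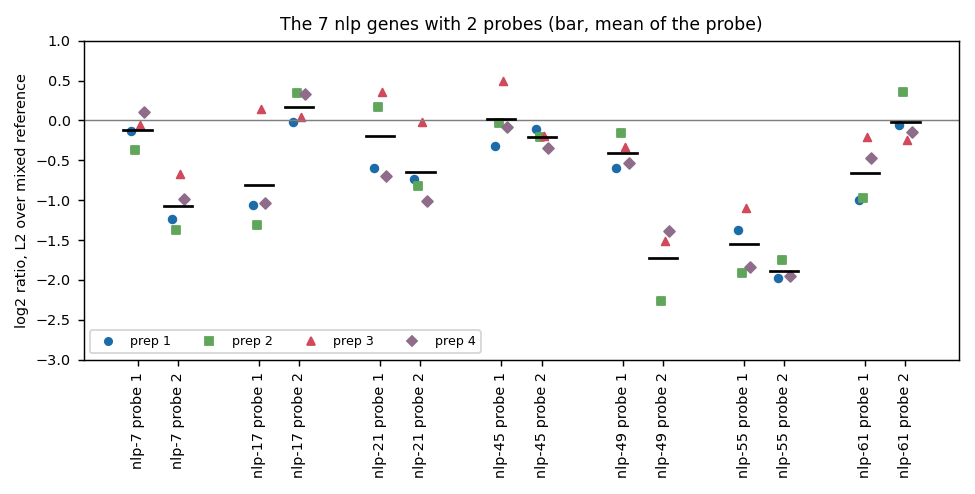
Log2 ratios of L2 over the mixed reference (y axis) for both probes (x axis) of the 7 nlp genes with 2 probes; symbols are preps and bars the mean of the probe. The probes of nlp-7 and nlp-49 do not overlap, at means of -0.11 and -1.07 and of -0.40 and -1.72, while both probes of nlp-55 lie below -1.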

How the data were processed

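The authors deposited 1 table of log2 ratios, with a column for each of 4 arrays, all of 1 group per the labels (wild-type L2 preps 1 to 4 against a mixed reference). The base was settled from the values: below a ratio of 0.9, 100% of ratios on each array were within 0.05 of a whole number of thousandths. How the authors corrected background, normalized and filtered spots is not stated in these sources. For this work the median of all probes on an array was subtracted, and probes of a gene were averaged. Of 21632 probes, 16450 had 1 gene, 247 several and 4935 none named, and 16360 matched the gene table (assembly WBcel235) by gene ID, with 0 changed symbols. Gene order was taken from that table, and its coordinates were not used.

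Features on at least 3 arrays (19941, among them all 53 nlp genes) were tested with limma 3.58.1 in R 4.3.3 (lmFit and eBayes, mean against 0, two-sided, Benjamini-Hochberg over all features, threshold 0.05). The reference counts as 1 control sample whose own spread is left out, and p-values reflect only how these samples vary, possibly for technical reasons. Intervals are at 95%. SDs are over preps. The members and lists were chosen with earlier results of these data known. Every nlp gene is a member. Of each other list, up to 2 called genes with the highest means and 2 with the lowest were named. If none passed, the 1 farthest from 0 was named. Receptors, enzymes and signalling genes tied to a member were added, and so were the remaining epidermis and gonadal sheath markers. Some of the added genes, like the seam markers ceh-16 and egl-18, were picked after their values were seen. Alternatives were other centring and normalization, array weights, a robust fit, other array minimums, single probes, a month block and each prep left out. On simulated data with 200 changed among 19941 features, 93 were called, 6 of them unchanged. There the test recovered 0%, 14%, 68% and 92% of changes of 0.5, 1, 2 and 4 on the log2 scale. In the deposited data 1968 features were called lower and 968 higher. The adjusted threshold was therefore stricter in the simulation, and its shares do not give the recovery in the deposited data. Python 3.11.15 was used with pandas 2.3.3 and matplotlib 3.10.9.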

Additional observations from a re-analysis of the deposited data

Results flagged for a closer look

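In each case below 1 prep lay far from the other 3, by Dixon's test at its 95% critical value, among 52 nlp genes and 18 medians of gene groups. Chance flags about 1 in 20 such groups. In prep 3, nlp-47 was at -0.45 and nlp-50 at 0.10, each above the other preps. In prep 2, nlp-91 was at -1.52, below the others. In prep 4, nlp-25 was at -0.11, below the others. The median of the caenacins was -1.20 in prep 1, below the other preps, all between -0.80 and -0.74.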

How the results depend on the processing

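The 15 nlp genes called lower kept their sign in every setting that gave a value, and 5 of them (nlp-32, nlp-28, nlp-55, nlp-15 and nlp-8) kept their call in all 14 settings. With deposited values, mean centring, scale and quantile normalization, a robust fit, 2 or 4 arrays as the minimum, single probes and the array's month as a random block, 14 to 21 were called lower. With single probes (16 lower) a gene counted where either probe passed, which for nlp-7 and nlp-49 was 1 of 2 probes, and its value was that of the probe with the lower p. With array weights it was 24, including all of the 15. Leaving out 1 prep gave 7 to 19. The count higher was 0 to 1 when 1 prep was left out, and 1 (nlp-24) in a robust fit and with the month as a block, which had a consensus correlation of -0.133. The block left the mean of nlp-24 at 1.26 and lowered its adjusted p by limma from 0.0687 to 0.0492. For nlp-24 the block was thus a less strict test than the main fit. The median over members ran from -0.66 to -0.39. Over 738 values of single members, 26 were no longer past the threshold, 29 newly past it and 0 called values changed sign, while nlp-4, nlp-13 and nlp-53, near 0, did so without a call. The cause of these changes was not tested. No paired analysis was possible because all samples belong to 1 group. Array titles place preps 1 and 2 in one month and preps 3 and 4 in another. No genes could be compared by spot brightness, since intensities were not used here.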
